A study of Homo sapiens with 6 samples.

Results

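The 37 genes of human mitochondrial DNA were examined in control cultures of SH-SY5Y, an established human neuroblastoma cell line. Members were chosen by symbol, as every gene of the count table whose symbol starts with MT-, which gave 37 of 60709 genes. They comprise 13 protein-coding genes, 2 ribosomal RNA (rRNA) genes and 22 transfer RNA (tRNA) genes.

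The series has 3 control samples, given DMSO, and 3 samples given Nrf2-peptide-linked fumarate in water together with DMSO, and medium was removed after 5 h in both groups. NRF2 is a transcription factor for antioxidant genes. Each well held 2 mL of medium, each received 10 uL of DMSO, and treated wells received 200 uL of peptide solution, without a matching volume of water named for the controls. Count columns headed 4, 5 and 6 bear the numbers of the control samples and were used as control replicates 1, 2 and 3. The labels number the peptide samples 13, 14 and 15, whereas the other columns are headed 1, 2 and 3, so the peptide samples were not analysed here and no treatment effect is reported. The identity of the 3 libraries as controls rests on those numbers alone. The labels do not say whether the replicates were separate cultures, so the spread given here may be technical.

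Mitochondrial DNA is a small circular genome that encodes core subunits of the respiratory chain and ATP synthase, together with the rRNAs and tRNAs needed to translate them. Both strands are transcribed as long RNAs, and the tRNAs that lie between the other genes are cut out to release the rRNAs and messenger RNAs. The heavy-strand transcripts carry most genes, and MT-ND6 is the only protein-coding gene of the light-strand transcript. Most of the messenger RNAs then receive a short poly(A) tail.

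Gene positions and sequences were taken from GENCODE release 29 on GRCh38, the build named in the submitters' processing notes, and all 37 versioned identifiers of the table were identical there. The ends of the protein-coding genes are shown because the stop codon of some is complete only once a poly(A) tail is added. The annotated end is not always where a tail begins, since MT-ATP8 and MT-ND4L end within a messenger RNA shared with the next gene. The last 15 bases of each gene are given from 5′ to 3′ on the coding strand, with the stop codon, or the base or bases left over after the last whole codon, in capitals.
MT-ND1, chrM:4248-4262, plus strand: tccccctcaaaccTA
MT-ND2, chrM:5497-5511, plus strand: tactaataatcttaT
MT-CO1, chrM:7431-7445, plus strand: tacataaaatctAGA
MT-CO2, chrM:8255-8269, plus strand: gtatttaccctaTAG
MT-ATP8, chrM:8558-8572, plus strand: cccccacaatccTAG
MT-ATP6, chrM:9193-9207, plus strand: cacgacaacacaTAA
MT-CO3, chrM:9976-9990, plus strand: attgatgagggtctT
MT-ND3, chrM:10390-10404, plus strand: tagactgaaccgaaT
MT-ND4L, chrM:10752-10766, plus strand: ctactccaatgcTAA
MT-ND4, chrM:12123-12137, plus strand: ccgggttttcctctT
MT-ND5, chrM:14134-14148, plus strand: ctcctaatcacaTAA
MT-ND6, chrM:14149-14163, minus strand: gctcgggggaatAGG
MT-CYB, chrM:15873-15887, plus strand: tactcaaatgggccT
In 6 of the 13 genes (MT-ND1, MT-ND2, MT-CO3, MT-ND3, MT-ND4 and MT-CYB) the annotated gene stops after T or TA. The added tail supplies the A or As still missing from the stop codon. As annotated, the other 7 end in a whole stop codon of the vertebrate mitochondrial code. The last base of the MT-ATP6 stop codon is also the first base of MT-CO3.

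A pair of neighbouring genes shares more bases than any other on the same strand, which bears on how reads were assigned to MT-ATP8 and MT-ATP6. Their common stretch is shown with the start codon of MT-ATP6 and the stop codon of MT-ATP8 in capitals.
MT-ATP8 and MT-ATP6, chrM:8527-8572, plus strand: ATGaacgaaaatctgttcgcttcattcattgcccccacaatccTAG
This stretch is 46 bases long, out of 207 in MT-ATP8 and 681 in MT-ATP6. MT-ND4L and MT-ND4 share 7 bases, and MT-ATP6 and MT-CO3 share 1. How the authors counted reads that touch more than 1 gene is not given in the sources used here.

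The libraries held 8887854 to 11397407 counts. As a check of the cell type, 9 of 10 noradrenergic neuroblastoma markers reached 10 counts in each library, against 13920 of 60709 genes in all. The highest was HAND2 with 914 ± 44.3 CPM (SD, n = 3). CPM is counts per 1000000 of a library total scaled by the trimmed mean of M-values (TMM), a factor that aligns the bulk of genes between libraries. TH, the remaining marker of this list, had 0 counts throughout, and the limit that a count of 0 sets (3 counts) was 0.263 to 0.339 CPM per library. Markers of blood and endothelium (PTPRC, CD74 and PECAM1) summed to 0.468 to 1.14 CPM per library, and those of epithelium and liver (EPCAM, KRT18 and ALB) to 1.78 to 2.03 CPM. Of 6 markers of mesenchymal neuroblastoma cells and fibroblasts, 5 were detected, so detection alone does not set the cell states apart. The 6 markers summed to 772 to 855 CPM, with COL3A1 highest at 316 ± 21.0 CPM and PRRX1 at 0 counts throughout. Their part in the results below was not tested.

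By mean CPM over the libraries, 5 of the 37 members were among the 10 highest of all genes and 10 among the 50 highest. MT-RNR2 ranked 1, MT-CO1 2, MT-ND4 3, MT-CO2 4 and MT-CO3 5. The lowest protein-coding member on this scale, MT-ATP8, ranked 316.

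The 3 classes of mitochondrial RNA were represented very unequally. Protein-coding genes held 3.18% of all counts in replicate 1, 2.86% in replicate 2 and 4.91% in replicate 3, a mean of 3.65 ± 1.11% (SD, n = 3). The rRNA genes held 0.926%, 0.967% and 1.33%, a mean of 1.07 ± 0.222%. The tRNA genes held 0.00497%, 0.00481% and 0.00811%, from 531, 548 and 721 counts. Replicate 3 was highest for each class. For the protein-coding share, counting error was far smaller than the differences between libraries. Its 95% Wilson interval was 3.17 to 3.19% in replicate 1 and 4.90 to 4.93% in replicate 3. For the tRNA share the intervals of replicates 1 and 2 overlapped, at 0.00457 to 0.00541% and 0.00442 to 0.00523%. Intervals of this kind cover counting error only.

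Within the mitochondrial counts, the protein-coding genes took 77.4%, 74.6% and 78.6%, and the rRNA genes 22.5%, 25.3% and 21.3%. The ratio of rRNA to protein-coding counts was 0.291, 0.338 and 0.270, so it was highest in replicate 2. Complex IV, the oxidase that reduces oxygen, took the largest part through its 3 subunits MT-CO1, MT-CO2 and MT-CO3, with 38.7 ± 1.14% of mitochondrial counts. The 7 subunits of complex I, which accepts electrons from NADH, took 26.9 ± 1.60%. MT-CYB, the mitochondrial subunit of complex III, took 6.24 ± 0.272%. MT-ATP6 and MT-ATP8, subunits of ATP synthase (complex V), took 5.00 ± 0.838%.

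Levels between genes were compared as CPM per kb of annotated gene. The 3 catalytic-core subunits of complex IV ranked first among the protein-coding genes in every library. MT-CO2 (ENSG00000198712.1, chrM:7586-8269), which takes electrons from cytochrome c, stood at 6427, 5777 and 9373 CPM per kb in replicates 1, 2 and 3. MT-CO3 (ENSG00000198938.2, chrM:9207-9990) followed with 5211, 4873 and 8219 CPM per kb. MT-CO1 (ENSG00000198804.2, chrM:5904-7445), which holds the site of oxygen reduction, was ranked after them with 5121, 4554 and 6964 CPM per kb. Their order was the same in the 3 libraries, while their ranges overlapped because replicate 3 was high for all.

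Complex I subunits covered a wide span. MT-ND4 (ENSG00000198886.2, chrM:10760-12137), a membrane subunit of the proton-pumping arm, had the highest level of the 7, with 3606, 3196 and 6163 CPM per kb. MT-ND4L (ENSG00000212907.2, chrM:10470-10766), which lies just before it on a shared messenger RNA, had 2200, 2178 and 3318 CPM per kb. The level of MT-ND4L over that of MT-ND4 was therefore 0.610, 0.682 and 0.538, although one transcript carries both. The remaining subunits of complex I on the heavy-strand transcript were lower.

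MT-ND1 (ENSG00000198888.2, chrM:3307-4262) averaged 1539 ± 517 CPM per kb (SD, n = 3), MT-ND5 (ENSG00000198786.2, chrM:12337-14148) 1366 ± 379, MT-ND3 (ENSG00000198840.2, chrM:10059-10404) 1280 ± 608 and MT-ND2 (ENSG00000198763.3, chrM:4470-5511) 1237 ± 479. These 4 means differed by less than the SD of any of them, an SD that includes the high level in replicate 3 common to all. Within each library MT-ND1 lay above MT-ND5, MT-ND3 and MT-ND2. MT-ND5, MT-ND3 and MT-ND2 exchanged places between libraries.

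MT-ND6 (ENSG00000198695.2, chrM:14149-14673, minus strand) was the lowest protein-coding gene in every library, with 760, 667 and 1243 CPM per kb. Its ratio to the median of the 12 heavy-strand protein-coding genes was 0.337, 0.323 and 0.364, a mean of 0.341 ± 0.0208 (SD, n = 3). This ratio varied far less between libraries than the level itself. MT-ND6 also differed in base composition, with 35.6% G and 7.05% C on its coding strand. In the 12 heavy-strand genes G ranged from 6.28 to 16.2% and C from 29.5 to 36.0%. The library kit marks strand, but whether the counting used strand is not given in the sources used here. Reads of MT-ND6 and of antisense RNA over its position therefore cannot be told apart with certainty.

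MT-ATP6 (ENSG00000198899.2, chrM:8527-9207), the subunit that forms part of the proton channel, had 2373, 2150 and 4514 CPM per kb. MT-ATP8 (ENSG00000228253.1, chrM:8366-8572), a small accessory subunit translated from the same messenger RNA, had 1324, 1127 and 3238 CPM per kb. The level of MT-ATP8 was 0.558, 0.524 and 0.717 of that of MT-ATP6. With the stretches shared with neighbouring genes left out of both lengths, the ratios were 0.668, 0.627 and 0.859. MT-CYB (ENSG00000198727.2, chrM:14747-15887), which carries electrons between the quinone sites of complex III, had 2304, 1985 and 3516 CPM per kb.

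The mean level of the highest protein-coding gene, MT-CO2, was 8.08 times that of the lowest, MT-ND6. Of the 13 genes, 5 held the same rank in all 3 libraries (MT-CO2, MT-CO3, MT-CO1, MT-ND4 and MT-ND6). Between neighbours in the order of means, the ranges over libraries overlapped in 12 of 12 pairs. In 8 of these pairs the order was nonetheless the same in every library. Ranks within a library were thus steadier than levels between libraries, as the plot of levels by gene shows.

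**Figure D1:**
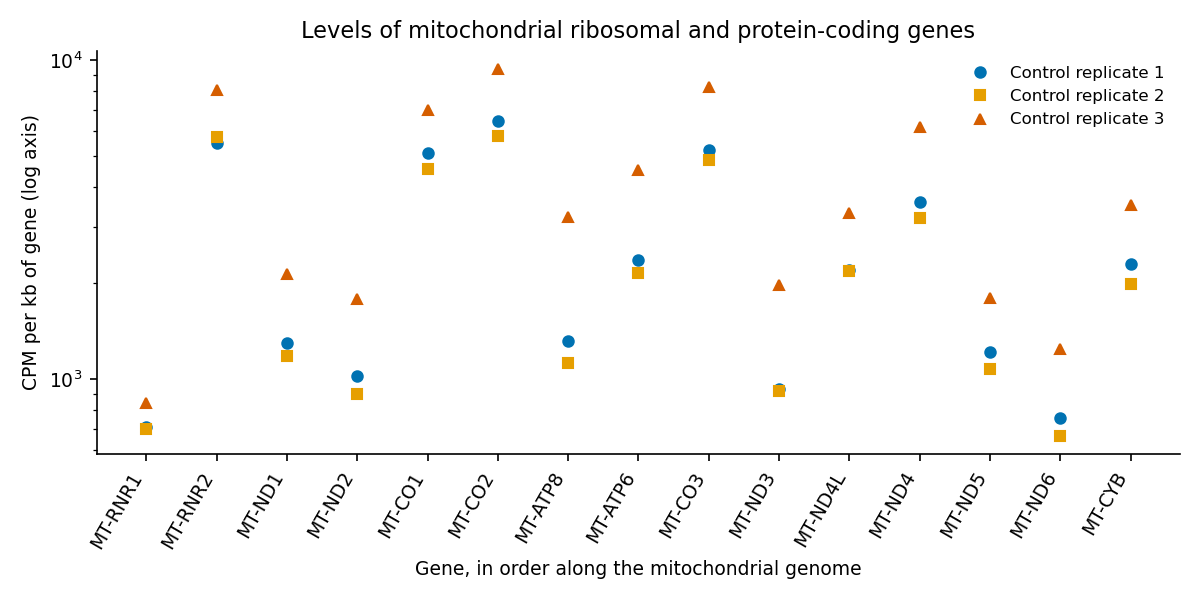
Level of each mitochondrial rRNA and protein-coding gene (y axis, CPM per kb of gene, log axis) in genome order (x axis), with 1 symbol per control library. MT-CO2 is the highest and MT-ND6 the lowest protein-coding gene in each library, and replicate 3 lies above replicates 1 and 2 for all 15 genes.

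The rRNA genes stood far apart from each other. MT-RNR2 (ENSG00000210082.2, chrM:1671-3229), the rRNA of the large mitochondrial ribosomal subunit, had 5498, 5759 and 8040 CPM per kb. MT-RNR1 (ENSG00000211459.2, chrM:648-1601), the rRNA of the small subunit, had 710, 702 and 843 CPM per kb. Both are processed from the same precursor and work in equal number in the ribosome. MT-RNR2 stood 7.74, 8.21 and 9.54 times above MT-RNR1 per length, a mean ratio of 8.50 ± 0.932 (SD, n = 3). MT-RNR2 was 2.42 to 2.90 times the median protein-coding gene, and MT-RNR1 was 0.254 to 0.353 times that median. These levels come from an mRNA kit, so they are levels in the library and not of total rRNA in the cell.

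Transfer RNAs were nearly absent from the counts. Of the 22 genes, 5 had at least 10 counts in every library, 3 had 1 to 7 counts in total over the libraries, and 14 had 0 counts in each. Over all genes of the table, 13920 of 60709 reached 10 counts in every library, a share close to that of the tRNA genes. The 5 detected tRNAs are shown with the anticodon in capitals, located by a search for its loop and paired stem.
MT-TF, chrM:577-647, plus strand: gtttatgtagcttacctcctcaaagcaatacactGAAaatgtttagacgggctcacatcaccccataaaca
MT-TL1, chrM:3230-3304, plus strand: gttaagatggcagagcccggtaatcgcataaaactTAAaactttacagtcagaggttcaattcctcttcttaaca
MT-TC, chrM:5761-5826, minus strand: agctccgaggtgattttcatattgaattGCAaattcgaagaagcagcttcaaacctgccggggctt
MT-TY, chrM:5826-5891, minus strand: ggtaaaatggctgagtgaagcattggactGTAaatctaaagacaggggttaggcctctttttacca
MT-TP, chrM:15956-16023, minus strand: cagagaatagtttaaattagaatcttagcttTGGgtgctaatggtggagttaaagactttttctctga
They carry phenylalanine, leucine, cysteine, tyrosine and proline, in the order shown.

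MT-TP (ENSG00000210196.2) had the most counts of the 22, with 258, 253 and 397 counts, or 24.1, 22.1 and 44.8 CPM. Its level was 447 ± 185 CPM per kb (SD, n = 3), below that of MT-ND6. MT-TY (ENSG00000210144.1) had 167, 172 and 156 counts, or 15.6, 15.1 and 17.6 CPM. MT-TC (ENSG00000210140.1), which overlaps MT-TY by 1 base, had 74, 75 and 126 counts, or 6.92, 6.56 and 14.2 CPM.

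In replicate 3, MT-TP and MT-TC stood at 1.94 and 2.11 times the mean of the other two libraries, and MT-TY at 1.15 times. The exact 95% Poisson interval of MT-TY in replicate 3, 15.0 to 20.6 CPM, overlapped that in replicate 1, 13.3 to 18.2 CPM. For MT-TP the interval in replicate 3, 40.5 to 49.5 CPM, was separate from that in replicate 1, 21.3 to 27.3 CPM. For MT-TC it was 11.9 to 16.9 CPM in replicate 3 against 5.43 to 8.69 CPM in replicate 1.

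MT-TF (ENSG00000210049.1) had 11, 24 and 22 counts, and MT-TL1 (ENSG00000209082.1) had 20, 19 and 16. For MT-TF the lowest library was replicate 1, with an interval of 0.513 to 1.84 CPM against 1.35 to 3.12 CPM in replicate 2. MT-TL1 did not differ between libraries beyond counting error. Below 10 counts, MT-TM had 1, 3 and 3 counts, MT-TW had 0, 2 and 0, and MT-TE had 0, 0 and 1. The 14 genes at 0 were MT-TV, MT-TI, MT-TQ, MT-TA, MT-TN, MT-TS1, MT-TD, MT-TK, MT-TG, MT-TR, MT-TH, MT-TS2, MT-TL2 and MT-TT. The limit for each of them is the one given for TH.

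Of the tRNAs on the light-strand transcript, 3 of 8 were detected, and they held 499, 500 and 680 counts with the undetected members of that strand included. Of those on the heavy-strand transcript, 2 of 14 were detected, with 32, 48 and 41 counts in all. The genes are 59 to 75 bases long. On the heavy-strand transcript MT-TL1 directly abuts MT-RNR2, while MT-TF has no annotated gene before it and abuts MT-RNR1. MT-TV, which abuts both rRNA genes, was at 0 in each library, as were MT-TG, MT-TR, MT-TH, MT-TS2 and MT-TL2, which abut a gene on either side. On the light strand the nearest gene on the same strand lies 1213 bases from MT-TP, and 31 bases separate MT-TC from MT-TN. The nearest same-strand genes of MT-TQ and MT-TS1 lie 1186 and 1554 bases away, and both were at 0. The same limit on strand as for MT-ND6 applies to all tRNAs of the light-strand transcript.

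**Figure D2:**
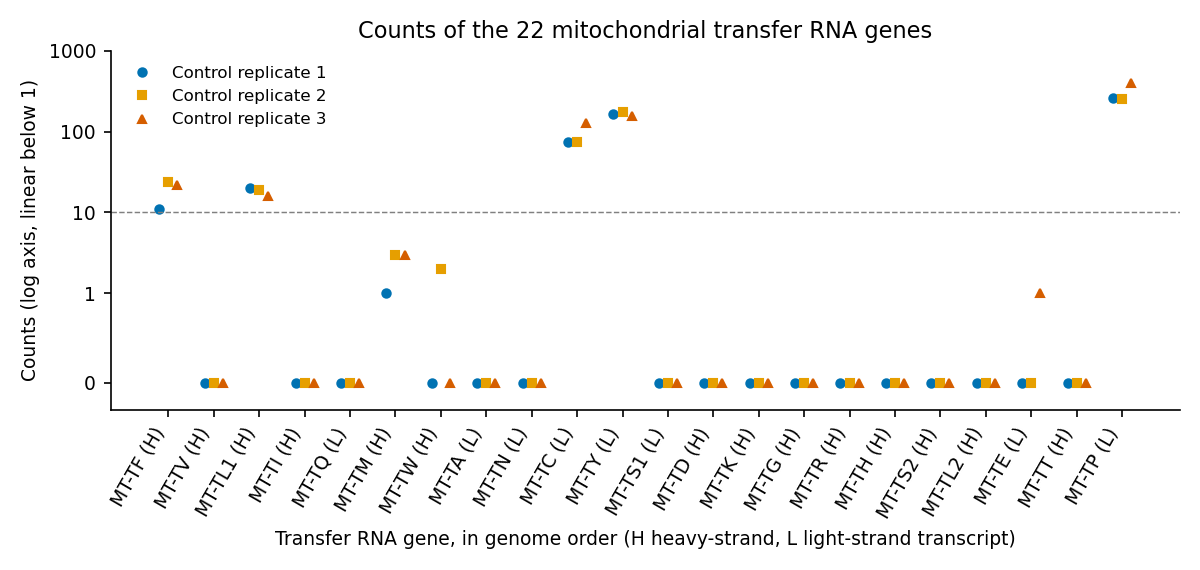
Counts (y axis, log axis that is linear below 1) of the 22 mitochondrial tRNA genes in genome order (x axis), with 1 symbol per control library and a dashed line at 10 counts. MT-TP, MT-TY and MT-TC, all light-strand transcripts, lie at 74 to 397 counts, MT-TF and MT-TL1 at 11 to 24, and 14 genes are at 0 in each library.

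Between the control libraries, the mitochondrial messenger RNAs varied more than other abundant genes. The difference was measured as the CPM of the highest library over that of the lowest. This ratio was at least 1.5 for 13 of 13 protein-coding genes, 0 of 2 rRNA genes and 3 of the 5 detected tRNA genes, 16 of 20 members in all. It was reached by 9.74% of the 13920 genes that had 10 or more counts in each library. With a minimum of 1000 counts in each library, chosen after the data were seen, 0.618% of 2104 genes reached it, which is 13 genes. These were the 13 mitochondrial protein-coding genes, and the next gene in order was MTATP6P1 with 1.495. Among the 3 tRNA genes past 1.5, MT-TF had 11 to 24 counts per library. Its intervals in replicates 1 and 3 overlapped, at 0.513 to 1.84 and 1.56 to 3.76 CPM.

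The median ratio of the highest to the lowest library was 1.80 over the 13 protein-coding genes, against 1.11 over the 2104 abundant genes. MT-ATP8 had 274, 233 and 670 CPM, the widest spread, with a ratio of 2.87. MT-ND3 had 324, 319 and 686 CPM, a ratio of 2.15. MT-ATP6 had 1616, 1464 and 3074 CPM, a ratio of 2.10. In each of these genes replicate 3 stood apart, and replicates 1 and 2 lay closer to each other than to replicate 3. MT-ATP8 had the lowest ratio of replicate 2 to replicate 1 of the 13 genes, at 0.851.

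At the narrow end, MT-ND4L had 653, 647 and 985 CPM, a ratio of 1.52, and MT-CO1 had 7897, 7022 and 10739 CPM, a ratio of 1.53. The other 8 protein-coding genes had ratios of 1.62 (MT-CO2) to 1.98 (MT-ND2). MT-RNR2 had 8571, 8978 and 12535 CPM, a ratio of 1.46, and MT-RNR1 had 677, 669 and 804 CPM, a ratio of 1.201. Counting error was 0.300 to 1.94% per library for these 15 genes, while the coefficient of variation between libraries was 10.5 to 61.5%.

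Replicate 3 was the highest library for 13 of 13 protein-coding genes, 2 of 2 rRNA genes and 4 of 5 detected tRNA genes. Replicate 3 was highest for 38.6% of the 13920 genes and for 36.3% of the 2104 abundant ones. For the combined rule, a ratio of at least 1.5 with replicate 3 highest, the 16 members stand against 4.29% of those genes. The members are parts of the same few transcripts and share their libraries, so they are not independent of each other. Replicate 2 was below replicate 1 for 13 of 13 protein-coding genes, at 0.851 to 0.990 of its level. The median of replicate 2 over replicate 1 was 0.889 for these genes and 0.997 for the 2104 abundant ones. Without replicate 3, 1 of 20 members reached a ratio of 1.5 (MT-TF), and 0 of 13 protein-coding genes did. The share of all genes was not computed for replicate 2 below replicate 1, nor for the ratio without replicate 3.

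Replicate 3 also differed in nuclear genes by GC content. Protein-coding members had 39.6 to 47.7% GC. For 789 abundant nuclear genes in that range the median level in replicate 3 was 1.03 times the mean of the other two libraries, and the highest was 1.41. For 208 abundant nuclear genes of lower GC the median was 1.13, and for 1092 of higher GC it was 0.916. The same ratio had a median of 1.72 over the 13 protein-coding members. The part of GC content in the members' difference was not tested.

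**Figure D3:**
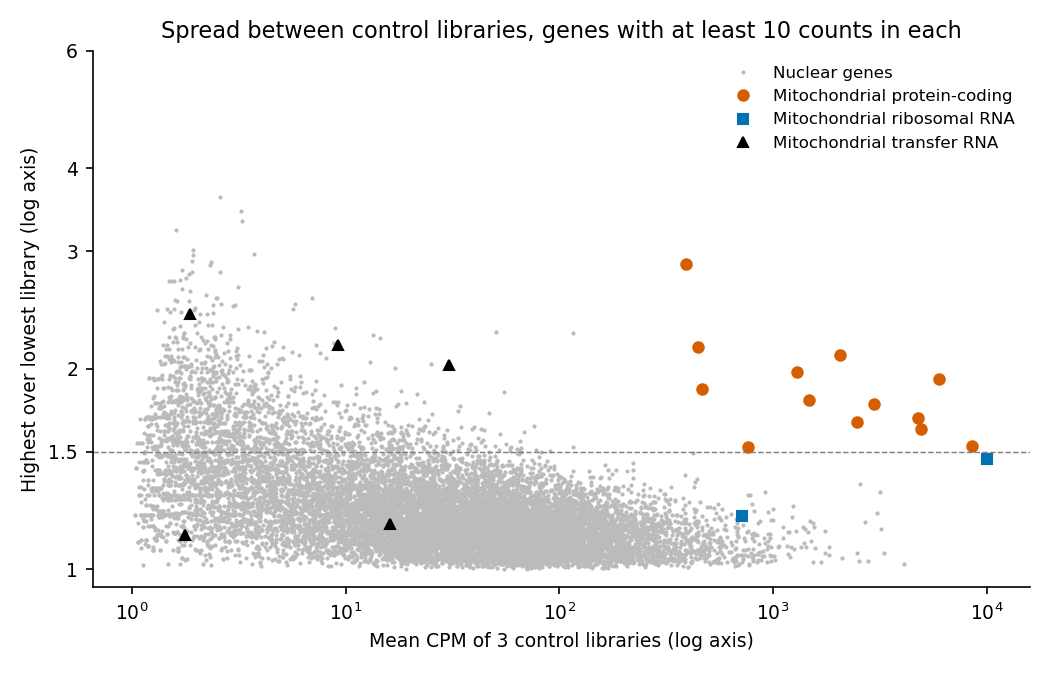
Ratio of the highest to the lowest control library (y axis, log axis) against mean CPM (x axis, log axis) for the 13920 genes that had 10 or more counts in each library, with nuclear genes as grey dots and a dashed line at 1.5. The 13 mitochondrial protein-coding genes lie at 1.52 to 2.87, above the nuclear genes of like abundance, and MT-RNR2 and MT-RNR1 lie at 1.46 and 1.201.

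The excess in replicate 3 was not equal for all members, so the composition of the mitochondrial RNA differed too. MT-ATP8 took 0.668% and 0.611% of mitochondrial counts in replicates 1 and 2 and 1.07% in replicate 3. MT-ND3 took 0.789%, 0.834% and 1.09%, and MT-ATP6 took 3.94%, 3.83% and 4.90%. In the opposite direction, MT-RNR1 took 1.65%, 1.75% and 1.28%, and MT-CO1 took 19.2%, 18.4% and 17.1%. MT-CO2, MT-CO3 and MT-ND5 had shares that differed by ratios of 1.03 to 1.05 between the highest and lowest library. Scaled to the sum of the 37 genes, a scaling added after the data were seen, 3 members had a ratio of at least 1.5. MT-ATP8 with 1.75 and MT-TF with 2.19 were among the 16 past it in CPM, and MT-TL1, with 1.58, was not, its ratio in CPM being 1.12. MT-TF and MT-TL1 had 11 to 24 counts per library and counting errors of 20.4 to 30.2%, so their ratios may be counting noise. The share of all genes past 1.5 was not computed with this scaling.

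**Figure D4:**
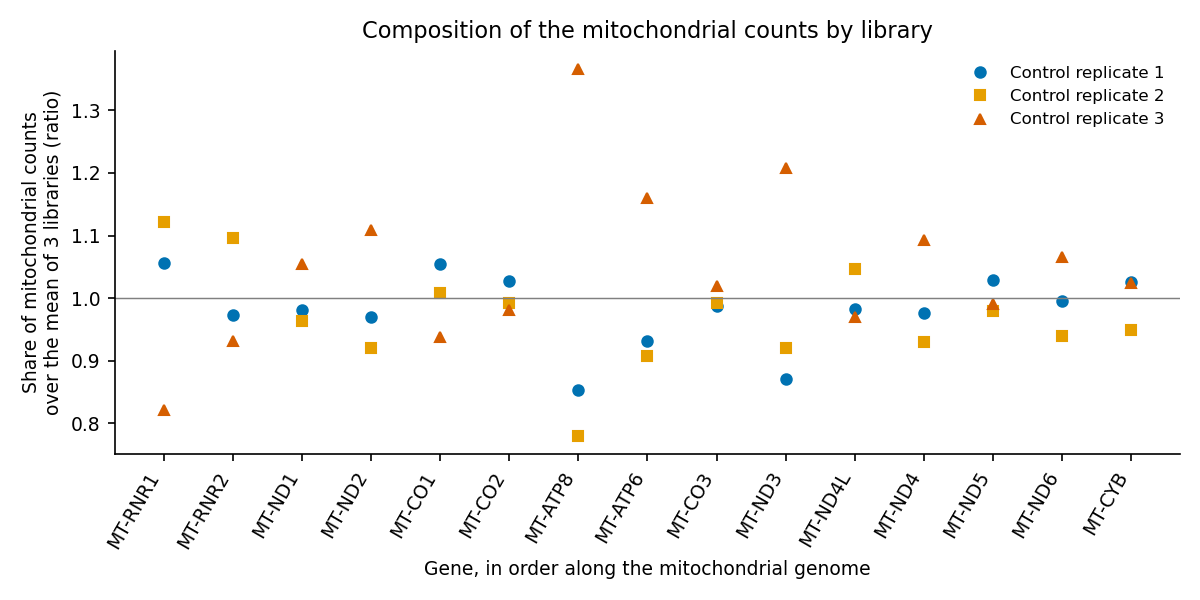
Share of the mitochondrial counts taken by each rRNA and protein-coding gene, divided by its mean over the 3 control libraries (y axis, ratio), in genome order (x axis) with 1 symbol per library. In replicate 3 MT-ATP8, MT-ND3 and MT-ATP6 lie above 1 and MT-RNR1, MT-RNR2 and MT-CO1 below it.

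Over the 13 protein-coding genes, the log2 ratio of the share in replicate 3 to the mean share in replicates 1 and 2 had a Pearson's r of -0.75 and a Spearman's rho of -0.61 with GC content. With the logarithm of mean CPM r was -0.63 and rho -0.60, and with that of gene length r was -0.59 and rho -0.41. Without MT-ATP8, the gene with the lowest GC (39.6%) and the shortest length, r was -0.61 with GC, -0.50 with mean CPM and -0.31 with length, and rho was -0.50, -0.49 and -0.25. MT-ND4L, the next shortest at 297 bases, had 43.1% GC and shares of 1.59%, 1.69% and 1.57%. Over 15 genes, with the rRNA genes included, r was -0.63 with GC, -0.44 with mean CPM and -0.59 with length. Spearman's rho over them was -0.44, -0.49 and -0.45. These are descriptions across 12 to 15 genes that share the same libraries and lie on common transcripts.

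Nuclear DNA holds copies of mitochondrial genes, and reads can fit both. The 404 genes of the table named as such copies had 5759, 5534 and 7182 counts, or 1.31, 1.27 and 1.29 for every 100 mitochondrial counts. From a list of 22 named copies, 10 were found in the table. Of these, 4 had at least 10 counts in every library, against 13920 of 60709 genes in all. MTATP6P1 had the most, with 4164, 3990 and 4623 counts. Its transcript is 98.5% identical to MT-ATP6 over 681 bases, and its counts were 24.1, 23.8 and 17.0 for every 100 of MT-ATP6. MTATP8P1, at 97.6% identity to MT-ATP8, was the lowest with 0 counts in each library.

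MTND4P12 (974, 898 and 1573 counts, 95.8% identity to MT-ND4) and MTND2P28 (404, 398 and 701 counts, 98.4% identity to MT-ND2) had ratios of 2.26 and 2.27 between libraries, against 1.93 for MT-ND4 and 1.98 for MT-ND2. Both were highest in replicate 3. MTATP6P1 had the ratio of 1.495 given above, against 2.10 for MT-ATP6. When the counts of MTATP6P1 were added to those of MT-ATP6, the ratio of MT-ATP6 went from 2.10 to 1.98. For the other 9 pairs adding the copy moved the ratio by less than that. Whether counts of the copies came from nuclear or mitochondrial RNA was not tested.

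RNAs that are made mainly without a poly(A) tail were measured as a sign of how far the libraries held such RNA. On the list of 17, 4 had at least 10 counts in every library, against 13920 of 60709 genes in all. No counts in any library were found for 6, among them RN7SK, RMRP and RPPH1. The sum over the list was 36.1, 37.98 and 36.2 CPM in replicates 1, 2 and 3. Most of it came from the histone genes H1-2, the highest with 17.7 ± 2.23 CPM (SD, n = 3), and H2AC6, with 14.8 ± 1.83 CPM. RN7SL1 had 1.57 ± 0.0983 CPM. The sum therefore says little of the other RNAs on the list. The sums rest on 386, 434 and 321 counts, and any link to the mitochondrial share was not tested.

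The nuclear genes that transcribe, process and degrade mitochondrial RNA, or copy its DNA, were present at modest levels. Of 39 listed genes, 38 had at least 10 counts in every library, against 13920 of 60709 genes in all. The median over the list was 42.3 CPM. The ratio of the highest to the lowest library reached 1.5 in 1 of 38, FASTKD1 with 1.502, against 9.74% of all genes. The median ratio was 1.19 over the list and 1.18 over all genes. The sum over the list was 2232, 2311 and 2285 CPM.

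For transcription, the polymerase gene POLRMT had 51.3, 49.5 and 40.3 CPM, lowest in replicate 3. TFAM, which packages mitochondrial DNA and starts transcription, had 42.7, 48.4 and 56.3 CPM, highest in replicate 3. TFB2M, the factor that opens the promoter, had 36.5 ± 1.13 CPM (SD, n = 3), and TEFM, the elongation factor, had 6.74 ± 0.784 CPM. For processing, TRMT10C, a part of the enzyme that cuts the tRNA 5′ end, had 40.7 ± 5.66 CPM. ELAC2, which cuts the 3′ end, had 105 ± 5.24 CPM, and MTPAP, the mitochondrial poly(A) polymerase, had 24.4 ± 0.676 CPM.

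LRPPRC and SLIRP form a complex that stabilises mitochondrial messenger RNA. LRPPRC was the highest of the list in CPM, with 301, 329 and 354, and SLIRP was nearly constant at 61.7 ± 0.387 CPM. Per kb of longest transcript the order was the other way, with 51.8 ± 4.16 CPM per kb for LRPPRC and 71.3 ± 0.448 for SLIRP. PNPT1 and SUPV3L1, the nuclease and helicase that degrade mitochondrial RNA, had 35.1 ± 3.21 and 31.8 ± 2.94 CPM. PPARGC1A, a coactivator of mitochondrial gene programmes, was the lowest of the list with 0, 5 and 2 counts.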

How the data were processed

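A stranded mRNA kit was used on total RNA, per the labels' protocols. Per the submitters' processing notes the authors used fastp 0.21.1, STAR 2.7.7a, featureCounts and build GRCh38; the annotation, strand setting and treatment of shared reads are not given in the sources used here. The deposited values are raw counts per gene, without normalization. Of 6 count columns, 3 matched samples by name, and 3 were not used. Entries without values (1 gene) or naming no gene (2 lines) were left out.

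Symbols came from a table of Ensembl identifiers, and 60480 of 60709 genes matched. TMM factors were computed over all genes with edgeR 4.0.16 in R 4.3.3. Intervals and ratios were computed in Python 3.11.15 with scipy 1.17.1 and pandas 2.3.3. The count of genes past a ratio was tested on simulated data. With 1 group there was no test between groups, and p-values are not given. Members, lists and the naming rule (all members, 12 named machinery genes, and the highest and lowest of each list) were chosen with earlier results of these data known. FASTKD1, MTND2P28 and MTND4P12 were singled out after their values were seen. The planned edgeR comparison with treated samples was not run.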

Additional observations from a re-analysis of the deposited data

How the results depend on the processing

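The count of members with a ratio of at least 1.5 between libraries, 16 of 20, was 16 with RLE size factors, with library size alone and with TMM factors from nuclear genes. It was 6 at a threshold of 2-fold, and 3 when scaled to the sum of the 37 mitochondrial genes, a setting chosen after seeing the data. Leaving out one replicate at a time gave 1 to 15, with 1 without replicate 3, so the spread rests on that library. The share of all genes past the ratio was not computed under these alternatives. Shares, the median level of the protein-coding genes and the ratios of MT-RNR2 to MT-RNR1 and of MT-ND6 to the heavy-strand median moved by less than 1 SD under each alternative. Leaving out 1 of 3 libraries cannot move a mean by 1 SD, so it says little of their stability. The number of members detected was 18 to 21 at minimums of 20 to 1 counts. No paired analysis was possible because only control libraries could be assigned. The alternatives planned for treated against control (replicate block, DESeq2, RLE, no filter) were not run. Counts were fewest for the tRNA genes, of which 3 have 1 to 7 counts in total. The part of depth in this was not tested.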
